A study of Mus musculus with 2 samples.

Results

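The genes described here are 10 members of the mouse MHC class I antigen presentation pathway: the heavy chain genes H2-K1 and H2-D1, B2m, Tap1, Tap2, Tapbp, Psmb8, Psmb9, Nlrc5, and H2-M2, a gene of the MHC M region that is set apart from the other 9. They were taken by gene symbol from the 31253 genes listed for both libraries, and all 10 were found. H2-M2 was chosen by its lower UMI count per total in macrophages of the ibudilast library, and the other 9 as genes of class I presentation with results of these libraries known, so those values are descriptions. CD45-positive cells, CD45 being a surface protein of blood-derived cells and microglia, came from gliomas grown by injecting GL261 cells, an established mouse glioma line, into C57BL/6 mouse brains. The ibudilast library stems from mice dosed by gavage with ibudilast, an inhibitor of phosphodiesterases and of the cytokine MIF, at 20 mg/kg, 5 times a week for 2 weeks, and the PBS library from mice dosed with PBS by the same route and schedule. One label calls the PBS library untreated, and neither the number nor the age or sex of the mice is stated in the labels.

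MHC class I molecules hold short peptides at the cell surface, where CD8 T cells read them and receptors of NK cells sense their presence. The peptides are cut in the cytosol by the proteasome, whose catalytic subunits are exchanged for inducible ones (the immunoproteasome) in many immune cells and under interferon gamma. They are then pumped into the endoplasmic reticulum by the TAP transporter and loaded there onto a heavy chain paired with β2-microglobulin. In the brain, class I is low in resting tissue and is raised by interferon in microglia, infiltrating myeloid cells and glia. H2-K1 and H2-D1 encode the classical heavy chains, in C57BL/6 mice H-2Kb and H-2Db. The M region of the MHC encodes class I-like heavy chains, few of which have a known ligand.

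8 of the 10 genes lie on chromosome 17 of the mouse genome (GENCODE M21 on GRCm38). H2-K1 spans chr17:33996017-34000347 on the minus strand and H2-D1 chr17:35262730-35267499 on the plus strand. H2-M2 spans chr17:37480851-37483552 on the minus strand, 3.48 Mb from H2-K1 and 2.21 Mb from H2-D1. Between H2-K1 and H2-D1 lie Psmb9 (chr17:34181987-34187764, minus), Tap1 (chr17:34187553-34197225, plus), Psmb8 (chr17:34197721-34201454, plus) and Tap2 (chr17:34203527-34216321, plus). Tapbp lies at chr17:33915899-33929292 on the plus strand. The remaining genes are B2m at chr2:122147686-122153083 and Nlrc5 at chr8:94434356-94527272, both on the plus strand.

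The promoters of the heavy chains, of H2-M2 and of B2m are shown because H2-M2 was found in fewer cell classes than the other genes, while it shares part of its upstream sequence with the classical heavy chains. The windows hold the 250 bases before the transcription start in RefSeq (GRCm38.p6), 5′ to 3′ on the strand of the gene. They are chr17:34000334-34000583 (minus) for H2-K1, chr17:35262844-35263093 (plus) for H2-D1, chr17:37483555-37483804 (minus) for H2-M2 and chr2:122147437-122147686 (plus) for B2m. H2-K1 has 2 RefSeq starts, of which the farther downstream one was used. Capitals mark matches, on either strand, to GAANNGAAA or GAAANNGAA (forms of an interferon response element, the second of them chosen after the sequences were seen), GGGNNTTCC (like an NF-κB site), TGACGCG (like the X2 box bound with NLRC5 complexes) and CCAAT (like a Y box).

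H2-K1: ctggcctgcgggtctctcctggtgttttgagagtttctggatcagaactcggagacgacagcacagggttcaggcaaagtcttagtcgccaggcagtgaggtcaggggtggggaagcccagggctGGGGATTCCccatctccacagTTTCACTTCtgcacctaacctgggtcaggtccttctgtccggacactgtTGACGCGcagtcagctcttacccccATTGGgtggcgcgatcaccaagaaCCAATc
H2-D1: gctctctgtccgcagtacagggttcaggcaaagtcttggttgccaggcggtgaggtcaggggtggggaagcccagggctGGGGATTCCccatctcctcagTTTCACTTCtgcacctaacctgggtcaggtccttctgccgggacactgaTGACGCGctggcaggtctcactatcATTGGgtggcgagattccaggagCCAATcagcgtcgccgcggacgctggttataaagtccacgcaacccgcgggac
H2-M2: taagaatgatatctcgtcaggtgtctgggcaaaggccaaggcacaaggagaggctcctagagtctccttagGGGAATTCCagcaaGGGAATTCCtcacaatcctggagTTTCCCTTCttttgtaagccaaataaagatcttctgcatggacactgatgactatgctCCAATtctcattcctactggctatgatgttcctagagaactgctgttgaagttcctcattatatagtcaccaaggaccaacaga
B2m: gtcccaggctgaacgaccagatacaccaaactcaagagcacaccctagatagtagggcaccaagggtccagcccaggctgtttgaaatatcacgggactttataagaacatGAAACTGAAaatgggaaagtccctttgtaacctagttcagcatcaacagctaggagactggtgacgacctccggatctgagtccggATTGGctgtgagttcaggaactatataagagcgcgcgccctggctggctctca

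H2-K1 and H2-D1 were 87.2% identical over 203 aligned bases of these windows. H2-M2 was 71.5% identical to H2-K1 over 186 aligned bases and 76.7% to H2-D1 over 210. All 3 heavy chain windows hold GAANNGAAA, at 104 bases before the start in H2-K1, 150 in H2-D1 and 142 in H2-M2. They also hold GGGNNTTCC, at 125 bases before the start in H2-K1, 171 in H2-D1, and at both 179 and 165 in H2-M2. GAANNGAAA occurs in 6.31% and GGGNNTTCC in 4.98% of 32851 promoter windows of the same length, and both together in 0.332%. The windows of H2-K1 and H2-D1 hold TGACGCG at 55 and 101 bases before the start, which 1.56% of the promoters hold, while the aligned stretch of H2-M2 reads tgactatg. The B2m window holds GAAANNGAA at 139 bases before the start, found in 7.13% of the promoters. CCAAT was found in 7 of the 8 members with a RefSeq promoter and in 33.8% of all promoters. A match is a run of letters and not a measured site, and the GC content was 44.8% in the H2-M2 window, against 58% for H2-K1, 60.8% for H2-D1 and 50.8% for B2m. Tap1 and Psmb9 start from opposite strands so close together that their 300-base RefSeq windows share 275 bases.

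The ibudilast library held 8483 barcodes and 82196922 UMIs (unique molecular identifiers, each standing for 1 captured RNA molecule), and the PBS library 8968 barcodes and 119113794 UMIs. After filtering, 6654 ibudilast and 7666 PBS barcodes remained, with medians of 7857 and 11659.5 UMIs. More ibudilast than PBS barcodes were lost to the mitochondrial filter, 15.6% against 8.93%. 19 barcode sequences occurred in both libraries. Barcodes were placed in classes by marker genes, none of them a member: macrophages (C1qa, C1qb, C1qc), monocytes (Ly6c2, Plac8, Ccr2, Chil3, Hp), microglia (Tmem119, P2ry12, Sall1), dendritic, NK, T, B, and basophil or mast cells. 1645 ibudilast and 3010 PBS barcodes were macrophage-gated, 1098 and 816 monocyte-gated, 203 and 155 gated as migratory dendritic cells (Ccr7, Fscn1), 295 and 137 as NK cells, and 395 and 207 as CD8 T cells. 1956 ibudilast and 2039 PBS barcodes passed no gate, and 579 and 612 held both T cell and macrophage RNA and were kept apart. Levels are given as CPM, the UMIs of a gene per 1000000 UMIs of the class. Intervals are 95% intervals of counting error and of nothing else. With 1 library per group no difference between groups has a replicate check: a ratio sets one library beside the other and does not test the treatment. UMI counts from the 3′ end do not scale with gene length, and levels are compared between classes and libraries but not between genes.

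In the larger cell classes, the 9 genes of the classical pathway were at closely similar levels in the ibudilast and the PBS library. In the 5 classes with at least 100 barcodes in each library, the 45 ratios of ibudilast to PBS ran between 0.870 and 1.19, and 36 of them were above 1. None of the 45 lay under 0.8-fold, the limit used to call a gene lower, or past its inverse, the limit used to call one higher. Over all genes with at least 20 UMIs in both libraries together, 22.2% were past these limits in macrophages, 26.4% in monocytes, 41.6% in migratory dendritic cells, 43.9% in NK cells and 28.4% in CD8 T cells. These shares, here and below, count genes by their ratio alone, and a gene with few UMIs can pass a limit by counting error. Most of the 9 genes had far more UMIs than the minimum of 20, and the part of this was not tested. The median log2 ratio of the 9 genes was 0.09 in macrophages, 0.13 in monocytes, 0.10 in migratory dendritic cells, −0.01 in NK cells and 0.01 in CD8 T cells. Beside them, the median over all genes tested was 0.03, −0.01, −0.00, 0.01 and 0.02 in the same 5 classes. The myeloid classes thus had medians slightly above those of all genes, and the lymphoid classes did not.

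**Figure D1:**
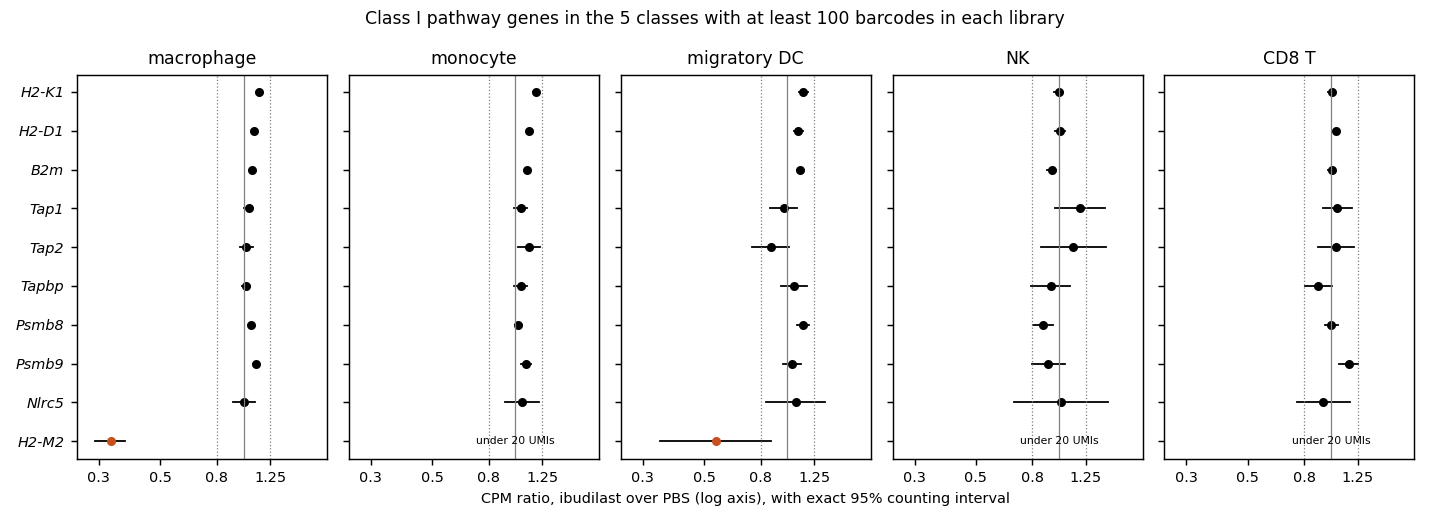
Ratio of CPM in the ibudilast library over the PBS library (x axis, logarithmic) for the 10 genes (y axis) in the 5 classes with at least 100 barcodes in each library. Points are ratios, lines their exact 95% counting intervals, and dotted lines 0.8 and its inverse; the 9 classical-pathway genes (black) lie between 0.870 and 1.19, while H2-M2 (orange) was at 0.331 in macrophages and 0.553 in migratory dendritic cells.

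The heavy chains and β2-microglobulin had the narrowest intervals. H2-K1 was at 3343 CPM in ibudilast and 2948 CPM in PBS macrophages, a ratio of 1.13 (interval 1.12 to 1.15). In monocytes it was at 2567 CPM in the ibudilast and 2170 CPM in the PBS library (ratio 1.18), and in migratory dendritic cells at 3485 and 3056 CPM (ratio 1.14). In NK cells the H2-K1 ratio was 0.995 (3404 CPM in ibudilast, 3423 CPM in PBS) and in CD8 T cells 1.01 (3219 and 3198 CPM). H2-K1 was thus higher in the ibudilast library in the 3 myeloid classes, by amounts that exceed counting error but are not called higher, and its intervals in both lymphoid classes included 1. H2-D1 was at 3371 CPM in ibudilast and 3084 CPM in PBS macrophages (ratio 1.09), at 3251 and 2906 CPM in monocytes (ratio 1.12), and at 3887 and 3544 CPM in migratory dendritic cells (ratio 1.10). In NK cells H2-D1 was at 3261 CPM in ibudilast and 3243 CPM in PBS, and in CD8 T cells at 2821 and 2715 CPM. B2m, the light chain of every class I molecule, was at 5922 CPM in ibudilast and 5512 CPM in PBS macrophages (ratio 1.07). It followed the heavy chains in monocytes (ratio 1.10) and migratory dendritic cells (1.11), and was below 1 in NK cells, at 3486 CPM in ibudilast and 3711 CPM in PBS (0.939, interval 0.903 to 0.977). Reads of H2-K1, H2-D1 and the H2-Q genes may be assigned to one another where their sequences are alike, and the setting for such reads is not stated in the labels or file headers.

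Psmb8 and Psmb9 encode inducible catalytic subunits of the immunoproteasome. Psmb8 was at 941 CPM in ibudilast and 883 CPM in PBS macrophages (ratio 1.07), and at 1990 and 1752 CPM in migratory dendritic cells (1.14). In NK cells it was at 743 CPM in ibudilast and 850 CPM in PBS, a ratio of 0.874 (interval 0.804 to 0.950). Psmb8 therefore differed in opposite directions in migratory dendritic and NK cells, both beyond counting error and neither past the limits. Psmb9 was at 425 CPM in ibudilast and 383 CPM in PBS macrophages (ratio 1.11), at 591 and 542 CPM in monocytes (1.09) and at 453 and 391 CPM in CD8 T cells (1.16).

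The transporter, its loading partner and the transactivator differed by little in macrophages. Tap1, which with Tap2 forms the peptide pump, was at 240 CPM in ibudilast and 230 CPM in PBS macrophages (ratio 1.04), and at 148 and 125 CPM in NK cells (1.19, interval 0.969 to 1.47). Tap2 was at 108 CPM in ibudilast and 106 CPM in PBS macrophages, and at 180 and 207 CPM in migratory dendritic cells (0.870, interval 0.744 to 1.02). Tapbp encodes tapasin, which bridges TAP and the empty heavy chain, and was at 276 CPM in ibudilast and 272 CPM in PBS macrophages. Nlrc5, the transactivator of class I genes, was at 37.7 CPM in ibudilast and 37.5 CPM in PBS macrophages (1.01, interval 0.916 to 1.10). In monocytes Nlrc5 was at 52.9 CPM in ibudilast and 50.2 CPM in PBS, and in migratory dendritic cells at 83.4 and 77.9 CPM. The intervals of Nlrc5 included 1 in all 5 large classes.

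The 8 smaller classes with at least 30 barcodes in each library rest on 31 to 261 barcodes. With them, 116 values in 13 classes ran from 0.390 (Nlrc5 in B cells) to 1.54 (Nlrc5 in cDC2). The neutrophil gate held 28 ibudilast and 22 PBS barcodes and is left out. Of these 116, 5 were called higher and 6 lower, and none had its whole interval past either limit. Among all genes, 48.1% were past either limit in microglia, 37.0% in cDC1, 40.2% in cDC2, 41.0% in plasmacytoid dendritic cells, 57.1% in basophil or mast cells, 58.7% in B cells, 44.1% in regulatory and 42.3% in conventional CD4 T cells. Microglia, with 52 ibudilast and 261 PBS barcodes, had Tapbp at 335 CPM in ibudilast and 249 CPM in PBS (1.35, interval 1.14 to 1.58). In the same barcodes B2m was at 6942 CPM in ibudilast and 6041 CPM in PBS (1.15), and H2-K1 at 3823 and 3327 CPM (1.15). In regulatory T cells Psmb8 was at 1147 CPM in ibudilast and 1354 CPM in PBS (0.847), and in plasmacytoid dendritic cells H2-K1 was at 3603 and 3767 CPM (0.956). The 9 genes showed no common direction in these small classes.

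When the gated immune classes were summed, the values differed from those within classes. B2m was at 4995 CPM in all gated ibudilast cells and 5145 CPM in all gated PBS cells, a ratio of 0.971, although it was above 1 in macrophages, monocytes and migratory dendritic cells. Psmb9 was at 508 CPM in all gated ibudilast cells and 423 CPM in all gated PBS cells (1.20), above its ratio in macrophages and monocytes. Macrophages, which had much B2m and little Psmb9 beside monocytes, made up 24.7% of the kept ibudilast barcodes and 39.3% of the kept PBS barcodes, and monocytes 16.5% and 10.6%. The values within classes are therefore the ones given here.

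Between cell types, the heavy and light chain genes and the genes for peptide cutting and transport formed separate sets, drawn up after the values were seen. Over the 13 classes, the levels of H2-K1, H2-D1 and B2m followed one another, with Pearson correlations of log2 levels from 0.74 to 0.84 in the ibudilast library and from 0.72 to 0.87 in the PBS library (3 pairs). Tap1, Tap2, Psmb8 and Psmb9 followed one another from 0.83 to 0.95 in ibudilast and from 0.79 to 0.94 in PBS (6 pairs). Between these sets the 12 correlations ran from 0.13 to 0.51 in ibudilast and from 0.20 to 0.50 in PBS. Tapbp and Nlrc5 belonged to neither set. Tapbp correlated with H2-D1 at 0.85 in ibudilast and 0.73 in PBS and with Tap1 at 0.70 and 0.74. Nlrc5 correlated with H2-D1 at 0.80 in ibudilast and 0.49 in PBS and with Psmb8 at 0.79 and 0.46. These correlations are descriptions over classes that share a library and differ in depth.

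**Figure D2:**
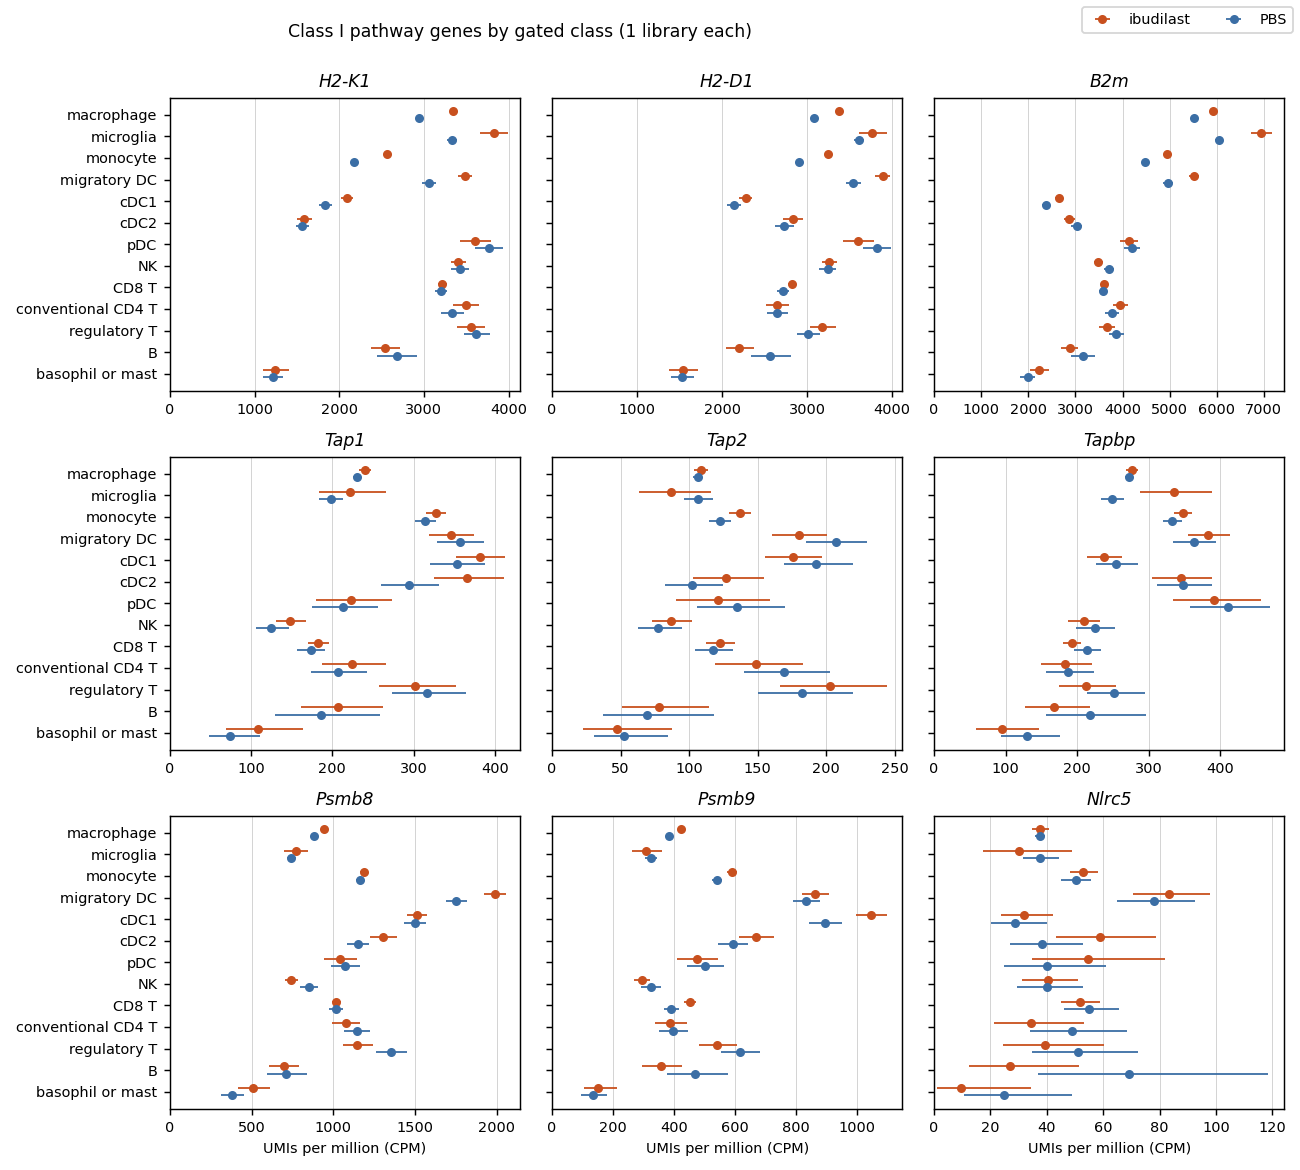
Levels of the 9 classical-pathway genes (x axis, CPM with exact 95% Poisson intervals) in 13 gated classes (y axis), ibudilast (orange) above PBS (blue). Basophil or mast cells were lowest for all 9 genes in both libraries, for Nlrc5 on 2 UMIs in ibudilast and 8 in PBS. Psmb8 and Nlrc5 were highest in migratory dendritic cells and Psmb9 in cDC1, and the points of both libraries lie close together.

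Macrophages and monocytes differed in both sets. H2-K1 was 1.30-fold (ibudilast) and 1.36-fold (PBS) higher in macrophages than in monocytes, and B2m 1.20-fold and 1.23-fold. H2-D1 was near the monocyte level, at 1.04-fold in ibudilast and 1.06-fold in PBS. Tap1 was lower in macrophages than in monocytes, at 0.732 of the monocyte level in ibudilast and 0.731 in PBS, and Psmb9 at 0.718 and 0.707. Macrophages thus held more H2-K1 and B2m RNA and less Tap1, Tap2, Psmb8 and Psmb9 RNA than monocytes of the same library. Of the 9 genes, 1 was called higher in each library (H2-K1, against 35.3% of all genes in ibudilast and 34.7% in PBS), and 6 in ibudilast and 4 in PBS were called lower (against 20.9% and 22.7% of all genes). Tap1, Psmb8, Psmb9 and Nlrc5 were under 0.8-fold in both libraries, with Psmb8 at 0.791 in ibudilast and 0.759 in PBS and Nlrc5 at 0.714 and 0.748.

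Migratory dendritic cells, which carry antigen towards lymph nodes, had more heavy and light chain RNA than both classes of conventional dendritic cells. Compared with cDC2 (Cd209a, Clec10a, Flt3), H2-K1 was 2.19-fold higher in ibudilast and 1.96-fold in PBS, and Psmb8 1.52-fold in both, while Tap1 was at 0.945 of the cDC2 level in ibudilast and 1.21-fold in PBS. 7 of the 9 genes were called higher in each library, against 40.2% of all genes in ibudilast and 38.9% in PBS. Compared with cDC1 (Xcr1, Clec9a), the cross-presenting dendritic cells, B2m was 2.08-fold higher in ibudilast and 2.10-fold in PBS, and Nlrc5 2.61-fold and 2.71-fold. Tap1 (0.907-fold in ibudilast, 1.01-fold in PBS) and Tap2 (1.03-fold and 1.07-fold) were near the cDC1 level, with intervals that include 1. Psmb9 was at 1048 CPM in ibudilast cDC1 and 897 CPM in PBS cDC1, above the 865 and 834 CPM in migratory dendritic cells. Plasmacytoid dendritic cells had more H2-K1 than migratory ones, at 3603 CPM in ibudilast and 3767 CPM in PBS. Against cDC1, 6 of the 9 genes in ibudilast and 5 in PBS were called higher (35.3% and 39.8% of all genes).

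CD8 T cells had more Tap1, Tap2, Psmb8 and Psmb9 RNA than NK cells and slightly less H2-D1. Psmb10, a further inducible subunit, was called lower in CD8 T than in NK cells in ibudilast (27.1% of all genes) but not in PBS. They had 1.53-fold (ibudilast) and 1.21-fold (PBS) the Psmb9 of NK cells and 1.41-fold and 1.52-fold the Tap2, while their H2-D1 was at 0.865 and 0.837 of the NK level, which is not called lower. B2m was at 1.03 of the NK level in ibudilast and 0.965 in PBS. 4 of the 9 genes in ibudilast and 3 in PBS were called higher in CD8 T than in NK cells, against 27.8% and 23.3% of all genes. Basophil or mast cells were at the low end: H2-K1 was at 1242 CPM in ibudilast and 1212 CPM in PBS, and Psmb9 at 152 and 133 CPM. All 9 genes were lowest in this class in both libraries, and all 9 were under 0.8-fold of monocytes, as were 41.1% of all genes in ibudilast and 47.2% in PBS. For Nlrc5 this rests on 2 UMIs in ibudilast and 8 in PBS, with intervals that overlap those of other classes. From the lowest to the highest class the range was 3.08-fold for H2-K1 in ibudilast and 3.11-fold in PBS, and 6.91-fold and 6.73-fold for Psmb9. This class had 31 ibudilast and 51 PBS barcodes.

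The share of the heavy chains also differed by cell type. There were 0.561 UMIs of H2-K1 for each UMI of H2-D1 in ibudilast cDC2 and 0.572 in PBS cDC2. In monocytes the ratio was 0.790 in ibudilast and 0.747 in PBS, in macrophages 0.992 and 0.956, and in CD8 T cells 1.14 and 1.18. Conventional CD4 T cells had the highest, 1.32 in ibudilast and 1.26 in PBS. The order cDC2, monocyte, macrophage, CD8 T was the same in both libraries, and their intervals did not overlap within a library.

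The immunoproteasome subunits were read beside the constitutive subunits that they replace. Psmb8 had 9.97 UMIs for each UMI of Psmb5 in ibudilast and 8.89 in PBS migratory dendritic cells, 6.32 and 5.79 in monocytes, and 5.07 and 4.54 in macrophages. Psmb9 had 3.39 UMIs for each UMI of Psmb6 in ibudilast cDC1 and 3.11 in PBS cDC1, and 1.34 and 1.26 in macrophages. Psmb10, the inducible partner of Psmb7, had 0.911 UMIs for each UMI of Psmb7 in ibudilast cDC1 and 0.743 in PBS cDC1, against 3.41 and 3.19 in monocytes. Psmb8 over Psmb5 was also lower in cDC1 than in monocytes, at 5.59 in ibudilast and 5.01 in PBS, and Psmb9 over Psmb6 was higher in cDC1, with 2.48 and 2.39 in monocytes. The ratio compares UMIs of separate genes, so only its order over classes is read.

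**Figure D3:**
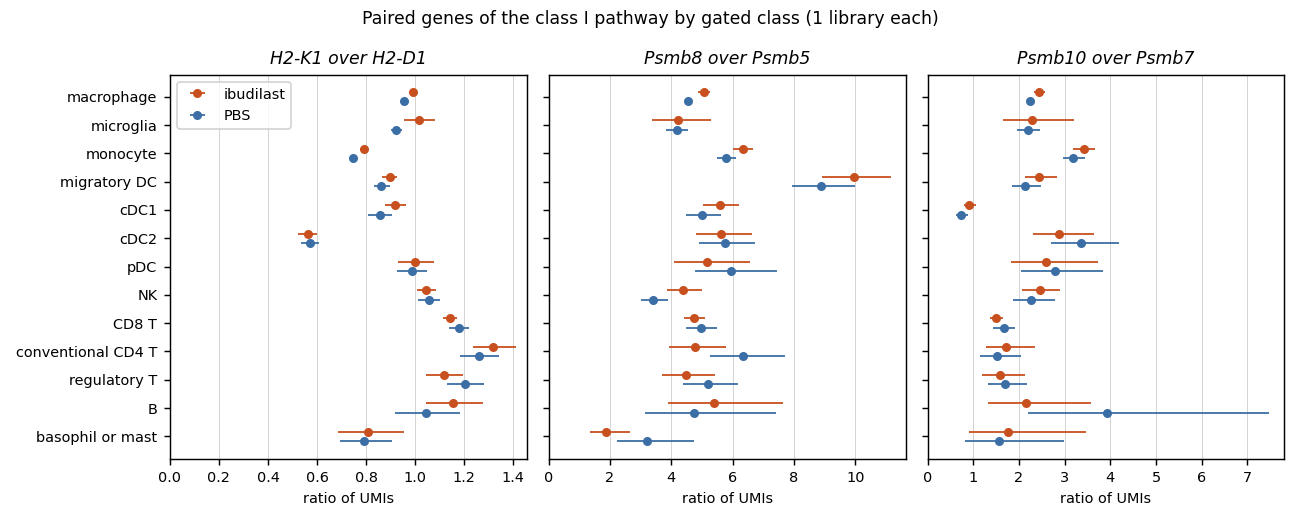
UMIs of one gene for each UMI of another (x axis) in the 13 gated classes with at least 30 barcodes in each library (y axis), ibudilast (orange) above PBS (blue), with exact 95% counting intervals. Among these classes H2-K1 over H2-D1 was lowest in cDC2 and highest in conventional CD4 T cells, Psmb8 over Psmb5 highest in migratory dendritic cells, and Psmb10 over Psmb7 lowest in cDC1.

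Among macrophages, the pathway varied with Cxcl9, a chemokine gene induced by interferon gamma, and with Gpnmb, a gene of lipid-laden macrophages. In PBS macrophages with at least 3 Cxcl9 UMIs, Tap1 was at 248 CPM, against 174 CPM in those with none (1.42-fold), and Nlrc5 was 1.45-fold higher. In ibudilast macrophages the same step was 1.12-fold for Tap1 (252 against 226 CPM) and 1.11-fold for Nlrc5. None of the 9 genes in ibudilast and 5 in PBS (Tap1, Tap2, Tapbp, Psmb9, Nlrc5) were called higher, against 10.5% and 13.4% of all genes, and H2-K1, H2-D1 and B2m were between 0.961-fold and 1.08-fold in both. Macrophages without a Cxcl9 UMI had medians of 5904 UMIs in ibudilast and 9415 in PBS, below the 11650 and 15960 of those with at least 3, and the part of depth in these values was not tested. Whether the step differs between the libraries was not tested either.

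With Gpnmb the heavy chains lay above 1, and Psmb9 and Tap1 below it. H2-D1 was at 4640 CPM in ibudilast macrophages with at least 3 Gpnmb UMIs, against 3141 CPM in those with none (1.48-fold), and at 4099 against 2952 CPM in PBS (1.39-fold). H2-K1 was 1.24-fold higher in ibudilast and 1.18-fold in PBS, and B2m 1.24-fold and 1.20-fold. Psmb9 was at 0.886 of the level without Gpnmb in ibudilast and 0.803 in PBS, and Tap1 at 0.905 and 0.824. Gpnmb-carrying macrophages thus had more heavy chain RNA and no more immunoproteasome or transporter RNA in either library. Of the 9 genes, only H2-D1 was called higher in each library, against 19.1% of all genes in ibudilast and 18.8% in PBS. Nlrc5 was called lower in PBS only (18.6% of all genes). Carriers had medians of 11729 UMIs in ibudilast and 15665 in PBS, against 8226 and 13416 with no Gpnmb UMI, and the part of depth was not tested.

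H2-M2 had a different pattern over cell types from the 9 genes. Among the gated classes it was found almost only in macrophages, migratory dendritic cells and microglia. In macrophages it had 288 UMIs in the ibudilast library, 17.2 CPM, and 2305 UMIs in the PBS library, 51.9 CPM, a ratio of 0.331 (interval 0.291 to 0.374). This is the value by which H2-M2 came onto the list, 7.29% of all genes were under 0.8-fold in macrophages, and nothing is read from it. The interval leaves out the spread between cells, which is large for this gene, as given below.

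Migratory dendritic cells had 18.2 CPM of H2-M2 in ibudilast (32 UMIs) and 32.8 CPM in PBS (54 UMIs), a ratio of 0.553 (interval 0.345 to 0.872). In that class 21.7% of all genes were called lower. 3 ibudilast barcodes held 56.3% and 4 PBS barcodes 70.4% of these UMIs, and the C1q genes of macrophages were at 420 CPM in ibudilast and 528 CPM in PBS. Over the alternatives the ratio ran from 0.170, with a stricter gate, to 0.742, without the 10 barcodes richest in H2-M2 of each library (a step added after the data were seen). Microglia had 5 UMIs in ibudilast, 9.42 CPM, and 54 in PBS, 14.6 CPM, with an interval of the ratio from 0.202 to 1.60. Monocytes had 3 UMIs in 1098 ibudilast and 4 UMIs in 816 PBS barcodes, so that macrophages over monocytes was a ratio of 48.5 in ibudilast (interval 16.4 to 236) and 95.4 in PBS. NK cells had 1 UMI in ibudilast and 0 in PBS, CD8 T cells 5 and 2, and neither cDC2, plasmacytoid dendritic cells nor B cells had any in either library. At the depth of cDC2 a count of 0 allows up to 3.84 CPM in ibudilast and 3.19 CPM in PBS, and at that of plasmacytoid dendritic cells up to 7.13 CPM in ibudilast and 5.70 CPM in PBS. H2-M2 was thus strongly restricted in cell type, unlike the 9 genes, which had UMIs in every class. Barcodes with both T cell and macrophage RNA had 16.4 CPM of H2-M2 in ibudilast and 33.7 CPM in PBS (0.486).

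**Figure D4:**
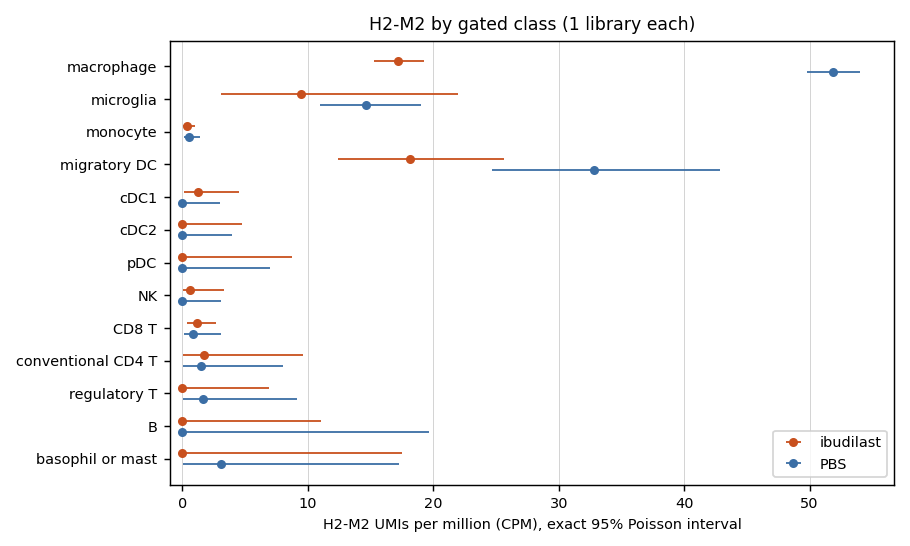
H2-M2 level (x axis, CPM with exact 95% Poisson intervals) in 13 gated classes (y axis), ibudilast (orange) above PBS (blue). Macrophages were at 17.2 CPM in ibudilast and 51.9 CPM in PBS and migratory dendritic cells at 18.2 and 32.8 CPM, while monocytes and lymphocytes were near 0.

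Few macrophages carried most of the H2-M2 RNA. A UMI was found in 63 of 1645 ibudilast macrophages (3.83%) and in 293 of 3010 PBS macrophages (9.73%). After each barcode was thinned to 3000 UMIs, the shares were 2.54% in ibudilast (36 of 1419, Clopper-Pearson interval 1.78% to 3.50%) and 4.68% in PBS (133 of 2844, 3.93% to 5.52%), with 226 ibudilast and 166 PBS shallower barcodes left out. At the same depth monocytes, read as the background of free RNA, had 0 of 1056 in ibudilast, which allows a share of up to 0.284%, and 1 of 789 in PBS (0.127%). The macrophage shares lay above this background in both libraries. The difference between the libraries restates the value by which the gene was chosen. With a stricter gate and the same thinning the macrophage share was 3.18% in ibudilast (21 of 661, 1.98% to 4.82%) and 4.09% in PBS (61 of 1493, 3.14% to 5.22%), intervals that overlap.

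29 ibudilast macrophages (1.76%) and 152 PBS macrophages (5.05%) had at least 3 H2-M2 UMIs, and these held 85.8% and 92.3% of its UMIs in the class. In these barcodes H2-M2 was at 586 CPM in ibudilast and 673 CPM in PBS. These barcodes were picked by the gene's own UMIs, and a minimum of 3 is reached more easily in the deeper PBS barcodes, so their levels are not compared. The highest single barcode had 41 UMIs in ibudilast and 88 in PBS. Without the 10 barcodes with most H2-M2 UMIs in each library, a step added after the data were seen, the ratio was 0.194. These 10 held 54.5% of the H2-M2 UMIs in ibudilast and 22.1% in PBS.

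**Figure D5:**
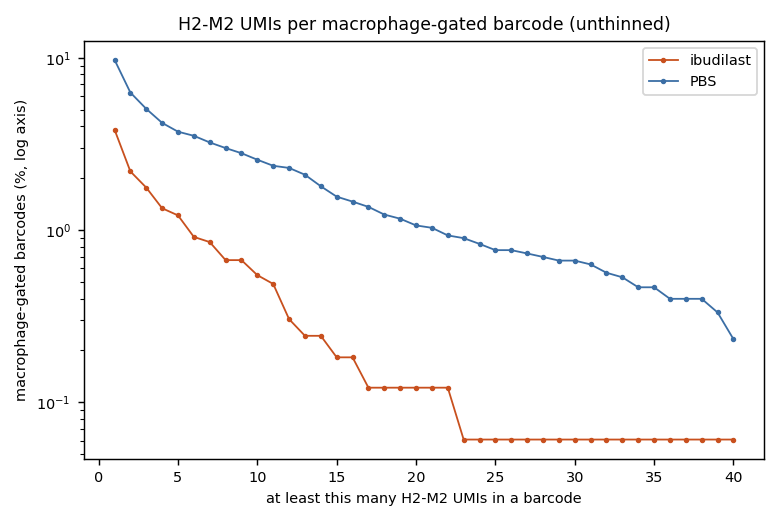
Percent of macrophage-gated barcodes (y axis, logarithmic) with at least a given number of H2-M2 UMIs (x axis), ibudilast (orange) and PBS (blue), without thinning. Ibudilast lies below PBS throughout, from 3.83% against 9.73% at 1 UMI to 0.547% against 2.56% at 10 UMIs.

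H2-M2 also varied between macrophage states. With Mrc1, the mannose receptor, at 3 UMIs or more H2-M2 was at 64.2 CPM in ibudilast and 146 CPM in PBS, against 14.4 and 39.0 CPM with none. With Ly6c2, a gene of recently arrived monocyte-derived cells, at 3 UMIs or more it was at 9.42 CPM in ibudilast and 26.9 CPM in PBS, against 21.5 and 71.3 CPM with none. Macrophages with at least 3 Ly6c2 UMIs were 47.1% of the class in ibudilast and 31.3% in PBS, and those with at least 3 Mrc1 UMIs 1.22% and 4.98%. The ratio of ibudilast to PBS was 0.441 at 3 or more Mrc1 UMIs, 0.351 at 3 or more Ly6c2 UMIs and 0.301 with no Ly6c2 UMI. These values split the UMIs by which the gene was chosen, so nothing is read from their direction.

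By Mmp12, a macrophage elastase, the ratio ran from 0.289 in macrophages with no Mmp12 UMI to 0.715 (interval 0.546 to 0.926) in those with at least 3, where H2-M2 was at 47.4 CPM in ibudilast and 66.3 CPM in PBS. With Gpnmb at 3 UMIs or more H2-M2 was at 14.5 CPM in ibudilast and 95.4 CPM in PBS (0.152), and with none at 18.4 and 46.7 CPM (0.394). With Cxcl9 at 3 UMIs or more it was at 21.4 CPM in ibudilast and 57.3 CPM in PBS (0.373). These ratios too are parts of the chosen value, and their intervals leave out that few barcodes hold most UMIs.

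H2-M2 was also set beside the level of microglia markers. Among the barcodes high in C1q genes used here, 540 in ibudilast and 1372 in PBS were under 300 CPM of microglia markers. They had 29.7 CPM of H2-M2 in ibudilast and 78.4 CPM in PBS. They are a part of the macrophage gate (1645 and 3010 barcodes), which as a whole was at 17.2 and 51.9 CPM. How the choice of this part bears on the steps was not tested. Those between 300 and 500 CPM had 1.20 CPM in ibudilast (1 UMI) and 46.6 CPM in PBS. Those between 500 and 1000 CPM had 10.7 CPM in ibudilast and 15.4 CPM in PBS, and those at 1000 CPM or more 0 UMIs in 41 ibudilast barcodes (interval up to 27.8 CPM) and 8.79 CPM in 66 PBS barcodes. Among these barcodes H2-M2 was highest where microglia markers were lowest in both libraries, and it was lower at each higher step in PBS but not in ibudilast. H2-K1 in the same steps stayed between 3520 and 4057 CPM in ibudilast and between 3101 and 3726 CPM in PBS.

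Macrophages with at least 3 H2-M2 UMIs were compared with those with none, and the genes of this comparison were chosen after their values were seen. Mmp2, a gelatinase, was 5.78-fold higher in ibudilast and 3.497-fold in PBS, and Ccl8, a chemokine, 4.41-fold and 3.82-fold. Vcam1, an adhesion molecule, was 3.21-fold higher in ibudilast and 2.16-fold in PBS, and Mrc1 3.52-fold and 2.05-fold. Ly6c2 was at 0.210 of the level of other macrophages in ibudilast and 0.200 in PBS, and Ccr2, the receptor that brings monocytes into tissue, at 0.384 and 0.374. The carriers thus had less RNA of these monocyte genes in both libraries. The 9 genes hardly differed, from 0.905-fold to 1.14-fold in ibudilast and from 0.900-fold to 1.19-fold in PBS, while the class II chain gene Cd74 was 1.799-fold higher in ibudilast and 1.30-fold in PBS. Carriers had medians of 14233 UMIs in ibudilast and 20047 in PBS, against 8512.5 and 13235 in the macrophages without the gene, and the part of depth was not tested.

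Over the 13 classes and 7920 genes, the gene most like H2-M2 was Zmynd15 (Pearson r of log2 levels 0.93 in each library), followed by Mmp2 (0.81 in ibudilast, 0.90 in PBS), Cp, Pmp22, Anxa3 and Smo. The gene most like H2-K1 was H2-Q7 (0.93 in each library), a Qa class I gene, followed by Faf2, Txndc12, Anapc1, Eif4g2 and H2-T22. H2-M2 correlated with H2-K1 at 0.45 in ibudilast and 0.17 in PBS, and with B2m at 0.75 and 0.58. Outside macrophages, migratory dendritic cells and microglia H2-M2 had few or no UMIs, so its correlations rest mainly on these classes. H2-Q7 and H2-K1 are 88.0% identical over 217 bases of their promoter windows, and reads shared between them would raise their likeness, which was not tested.

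Around the members, 33 of 34 other class I pathway genes were listed in both libraries (H2-T10 was not found). In macrophages none of the 32 with at least 20 UMIs was called higher and 4 were called lower, against 14.9% and 7.29% of all genes. The 4 encode chaperones of the endoplasmic reticulum. Calr (calreticulin) was at 859 CPM in ibudilast and 1154 CPM in PBS (0.744), and Pdia4 at 70.1 and 108 CPM (0.648). Canx (calnexin) was at 182 and 232 CPM (0.783) and Pdia3, the loading complex's disulfide isomerase, at 478 and 611 CPM (0.783). With Hspa5 they made 5 chaperones of the endoplasmic reticulum, a set drawn up after the values were seen. Their ratios were under 1 in macrophages, monocytes, migratory dendritic cells and NK cells, and 1 of 5 was above 1 in CD8 T cells. Of the 5, 4 were called lower in macrophages, 1 in monocytes, 3 in NK and 0 in CD8 T cells. The shares of all genes called lower there were 7.29%, 14.1%, 21.5% and 12.4%. In migratory dendritic cells 4 of 30 other pathway genes were called higher and 7 lower (20.0% and 21.7% of all genes), and all 5 chaperones were among the lower, with Calr at 302 CPM in ibudilast and 545 CPM in PBS (0.555) and Pdia4 with 30 UMIs in ibudilast and 96 in PBS (0.291). Over the alternatives these ratios ran from 0.421 to 0.774 for Calr and from 0.146 to 0.620 for Pdia4, and Pdia3 reached 0.815, which is not called lower. In NK cells 1 of 30 was called higher and 7 lower (22.4% and 21.5% of all genes), with Calr at 439 CPM in ibudilast and 597 CPM in PBS (0.734), and in CD8 T cells 2 of 32 were called higher and 2 lower (16.0% and 12.4%). In microglia Canx (1.27) and Calr (1.05) lay above 1. Calr and Canx were called higher in basophil or mast cells, Pdia4 and Hspa5 in B cells and Pdia4 in plasmacytoid dendritic cells. The shares of all genes called higher there were 36.3%, 18.2% and 21.4%. Calr and Pdia4 were called lower in cDC2 (21.7% of all genes). None of the 5 was called in cDC1, or in regulatory or conventional CD4 T cells.

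Class I-like genes of the Q, T and M regions were mostly above 1 in macrophages, monocytes and migratory dendritic cells. H2-Q7 was at 716 CPM in ibudilast and 588 CPM in PBS macrophages (1.22) and H2-T23, which encodes Qa-1, at 702 and 637 CPM (1.10). 6 of them (H2-T23, H2-T22, H2-Q4, H2-Q6, H2-Q7, H2-M3), a set drawn up after the values were seen, were all above 1 in these 3 classes. Of the 6, 0, 2 and 3 were called higher there (14.9%, 12.2% and 20.0% of all genes). In microglia H2-T23 and H2-Q7 were called higher and H2-Q6 lower (26.0% and 22.1% of all genes). In NK cells 3 and in CD8 T cells 4 of the 6 were above 1. H2-T24 was at 1.07 in macrophages and 1.03 in monocytes, and with 14 UMIs in ibudilast and 11 in PBS it was called lower in CD8 T cells (0.682). H2-M5 had at most 1 UMI in the 5 large classes. In monocytes 3 of the 32 other genes were higher, with Tapbpl, a peptide editor related to tapasin, at 73.1 CPM in ibudilast and 52.8 CPM in PBS (1.39), and 2 were lower (12.2% and 14.1% of all genes).

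No listed Irf, Rfx or Nfy gene was called in macrophages, monocytes or CD8 T cells. Irf1, an interferon-induced activator of class I genes, was at 203 CPM in ibudilast and 166 CPM in PBS macrophages (1.22), at 409 and 354 CPM in monocytes (1.16) and at 90.5 and 108 CPM in CD8 T cells (0.837). Rfx5, of the complex that recruits NLRC5, had 102 UMIs in ibudilast and 296 in PBS macrophages (0.912, interval 0.721 to 1.15). In NK cells Rfxank (11 UMIs in ibudilast, 15 in PBS, 0.524) and Nfya (20 and 28 UMIs, 0.510) were called lower, as was Nfyc in migratory dendritic cells (33 and 39 UMIs, 0.789), all named after their values were seen. In the smaller classes calls went both ways, with Rfx5, Rfxank and Nfyb higher and Irf1 lower in microglia. Erap1, the trimming peptidase, was at 30.6 CPM in ibudilast and 35.8 CPM in PBS macrophages (0.855).

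RNA of other cells was present in the macrophage gate at levels that differed between the libraries. Haemoglobin genes were at 72.6 CPM in ibudilast and 6.73 CPM in PBS macrophages, and T and NK cell genes at 43.0 and 14.4 CPM. The C1q genes that set the gate were at 18717 CPM in ibudilast and 19671 CPM in PBS. Macrophages also differed in depth, with medians of 8608 UMIs in ibudilast and 13722 in PBS. The part of these in the ratios above was not tested, and H2-M2 had a ratio of 0.409 and the 9 genes a median log2 ratio of 0.053 when each barcode was thinned to 3000 UMIs before gating.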

How the data were processed

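The authors deposited raw counts of UMIs for each gene in each barcode. Cell Ranger 6.1.1 made them, per the file headers, with build mm10, per the submitters' processing notes. Libraries were prepared with a droplet 3′ kit, per the labels' protocols. Barcodes with at least 300 genes, 500 UMIs and under 10% mitochondrial UMIs were kept. Scrublet (scanpy 1.11.5) marked 0 doublets in each library by its own threshold, so the 6% with the highest scores were left out, 425 ibudilast and 489 PBS barcodes. Each class was gated on UMIs of its marker genes with markers of other classes near absent, and C1q genes at 5000 CPM or more for macrophages and under 2000 CPM for monocytes, because C1q UMIs occurred in nearly all barcodes. Counts were summed per class and library and divided by the class total (CPM). Sums carry exact Poisson, shares Clopper-Pearson and ratios exact conditional binomial intervals (scipy 1.17.1), which leave out the spread between cells and mice. log2 ratios add 0.5 UMIs, and genes with under 20 UMIs over both libraries were not called. With 1 library per group no test was made. The ratio step was tested on simulated data. The members, lists, class markers and the rule for which genes are named were chosen with earlier results of these data known. That rule names all members, up to 6 other pathway genes per class by their interval, a fixed set of regulators and class I-like genes, and the 6 genes most like H2-M2 and H2-K1. Alternatives covered the barcode filter, doublets, gate, depth, scaling, count filter and fold. Results for some listed genes, and for barcodes gated with one of them, are not reported here.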

Additional observations from a re-analysis of the deposited data

How the results depend on the processing

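Alternatives were run for the members and for Calr, Canx, Pdia3, Pdia4, H2-Q7 and Tapbpl in the 5 large classes, and none of their called values changed its direction. Ratios near 1 did cross it: in macrophages Tap1 ran from 0.999 to 1.09, Tap2 from 0.993 to 1.05, Tapbp from 0.990 to 1.05 and Nlrc5 from 0.976 to 1.08 over the alternatives. The median log2 ratio of the 9 genes in macrophages, 0.09, was 0.053 with barcodes thinned to 3000 UMIs and 0.058 when centred on the median of all genes. The H2-M2 ratio in macrophages, 0.331, was 0.383 with the stricter gate, 0.409 thinned, 0.397 with barcodes weighted alike, 0.194 without the 10 barcodes richest in H2-M2 and 0.460 with the 3 Mmp12 states weighted alike, the last 2 chosen after seeing the data. With the stricter gate (116 ibudilast and 103 PBS migratory dendritic cells) the median of the 9 genes there was 0.25, 1 of them passed a limit, and the H2-M2 ratio was 0.170 against 0.553, which became 0.742 without the 10 barcodes richest in H2-M2. 2 of the 9 genes passed a limit in NK cells after thinning. Other pathway genes higher in macrophages numbered 3 with the stricter gate, 4 thinned and 5 with barcodes weighted alike, against 0, and those lower numbered 1 at 1.5-fold, against 4. The share of macrophages with an H2-M2 UMI was 1.22% in ibudilast and 2.60% in PBS thinned to 1000 UMIs, and 3.83% and 9.73% unthinned. For the remaining alternatives of these results, 108 values stayed within the spread or count allowed. The cause of these shifts was not tested. No paired analysis was possible because each group has 1 library. H2-M2 ratios outside macrophages and migratory dendritic cells were limited by depth.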

Other observations

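Genes from a list of class I receptors and their relatives differed between the libraries in NK cells. Not every gene of that list is known to bind class I molecules. The Ly49 receptor genes Klra4 (519 CPM in ibudilast, 300 CPM in PBS, ratio 1.73), Klra7 (414 and 214 CPM, 1.93), Klra8 (313 and 233 CPM, 1.35) and Klra9 (286 and 202 CPM, 1.41) were called higher, as was Pirb, and Lilrb4a was lower, of 10 receptor genes with at least 20 UMIs. In NK cells 22.4% of all genes were called higher. Klrc1, which encodes the NKG2A receptor of Qa-1, was at 211 CPM in ibudilast and 256 CPM in PBS (0.824). Klra8 is also a marker of the NK gate, and Ly49 genes are alike in sequence, so reads may be shared among them. Cd8a, the co-receptor of class I, was at 1062 CPM in ibudilast and 1065 CPM in PBS CD8 T cells.

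Ifng, the interferon that raises class I, was at 519 CPM in ibudilast and 243 CPM in PBS NK cells (2.14) and at 641 and 490 CPM in CD8 T cells (1.31). In these classes 22.4% and 16.0% of all genes were called higher. Ifng was also called higher in regulatory T cells (22.3% of all genes), but lower in conventional CD4 T cells (19.3% of all genes). In macrophages the type I interferon-induced genes Isg15 (1.57) and Ifit3 (1.44) were called higher in ibudilast, as were 14.9% of all genes. Cxcl9 was at 0.871 there, and the class II genes Cd74 at 0.790, H2-Aa at 0.894 and Ciita, their transactivator, at 0.882. H2-K1, H2-D1 and B2m thus lay on the other side of 1 from these class II genes in macrophages.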
